A study of Mus musculus with 3 samples.

Results

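The cells described here are macrophages of the mouse gallbladder that carry transcripts of complement component C1q. A barcode was counted as such a cell when it held at least 300 genes, at least 1000 unique molecular identifiers (UMIs, the counted transcripts) and at most 20% mitochondrial UMIs. It also needed 3 or more UMIs of C1qa, C1qb and C1qc together and at least 1 UMI of Csf1r, Adgre1, Mrc1 or Cd68. Barcodes with any UMI of Cd3e or Cd79a, or with 6000 CPM or more of Epcam, Krt8, Krt18 and Krt19, were left out; CPM is a gene's UMIs scaled to a common UMI total. By this rule 975 of 27700 barcodes were C1q-positive macrophages, which is 4.23% (exact 95% interval 3.97% to 4.50%) of the 23043 barcodes that met the gene, UMI and mitochondrial limits. The cells were selected on their measured C1q, Csf1r, Adgre1, Mrc1 and Cd68 UMIs, so the presence of these transcripts is no finding and is given as a description. The genes Lyve1, Folr2, Cd163 and Timd4, often used to name resident macrophages, had a UMI in 338 of the 975 cells after thinning to 1000 UMIs and in 49.6% without thinning. How many cells the name resident fits was not settled by this, and they are called C1q-positive macrophages throughout.

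The study profiled gallbladders of male C57BL/6 mice by droplet single-cell RNA sequencing of transcript 3′ ends. There were 3 groups: vehicle by gavage for 6 weeks, nanoplastics by gavage for 3 weeks, and nanoplastics by gavage for 6 weeks. Nanoplastics are plastic particles below the micrometre scale, and the shorter and longer courses stand for acute and chronic exposure. Each group was 1 library of 10 gallbladders pooled and digested in trypsin, so single mice cannot be told apart and no group was replicated. The barcodes are numbered by library, 1 to 3, and the numbers could not be matched to the groups. Vehicle and nanoplastics were therefore not compared, no test across libraries was made, and every value is given over all libraries or for each library by its number. Where values are given without a number they are in the order of libraries 1, 2 and 3. Intervals are exact 95% intervals that cover counting error only.

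C1q is the recognition part of the classical complement pathway. It is assembled from A, B and C chains, encoded by C1qa, C1qb and C1qc, and binds antibody complexes and dying cells. Unlike most complement proteins, which come from the liver, it is made largely by tissue macrophages. Such cells also make apolipoprotein E (Apoe), a lipid carrier, and the mannose receptor (Mrc1), an uptake receptor. Macrophages of connective tissue are often described along an axis from cells near vessels with Lyve1, Folr2 and Cd163 to cells rich in MHC class II that are replaced from Ccr2-positive monocytes.

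The 3 C1q genes lie side by side on the minus strand of chromosome 4 (GRCm38, GENCODE M21): C1qb at 136880129 to 136886187, C1qc at 136889804 to 136893065 and C1qa at 136895917 to 136898803. Upstream sequences are shown for 2 of these chains, for Mrc1 and for Ccl8, a chemokine gene that differed in level among these macrophages along the resident-type axis. They come from the RefSeq promoter table (GRCm38.p6), in which 6 of 7 symbols looked up were found and C1qa was not, and they end before the first exon. Capitals mark GAGGAA, a core of sites for the myeloid factor PU.1, and TGCTGA, a half-site of MAF factors, on either strand, where TTCCTC and TCAGCA are the reverse complements. C1qb is at chr4:136886201-136886450, C1qc at chr4:136893066-136893164, both on the minus strand, and Mrc1 is at chr2:14229164-14229391 and Ccl8 at chr11:82114935-82115184, both on the plus strand.
C1qb: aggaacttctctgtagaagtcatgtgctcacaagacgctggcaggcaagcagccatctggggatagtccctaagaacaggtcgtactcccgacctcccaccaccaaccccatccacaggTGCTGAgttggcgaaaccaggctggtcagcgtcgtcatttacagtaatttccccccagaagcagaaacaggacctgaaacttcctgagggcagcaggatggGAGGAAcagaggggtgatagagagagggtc
C1qc: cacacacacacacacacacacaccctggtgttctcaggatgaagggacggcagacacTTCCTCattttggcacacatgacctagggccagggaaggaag
Mrc1: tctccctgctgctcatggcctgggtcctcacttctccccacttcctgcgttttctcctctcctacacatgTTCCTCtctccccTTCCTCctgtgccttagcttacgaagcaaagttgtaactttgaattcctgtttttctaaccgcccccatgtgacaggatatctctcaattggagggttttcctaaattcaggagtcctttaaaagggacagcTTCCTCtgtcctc
Ccl8: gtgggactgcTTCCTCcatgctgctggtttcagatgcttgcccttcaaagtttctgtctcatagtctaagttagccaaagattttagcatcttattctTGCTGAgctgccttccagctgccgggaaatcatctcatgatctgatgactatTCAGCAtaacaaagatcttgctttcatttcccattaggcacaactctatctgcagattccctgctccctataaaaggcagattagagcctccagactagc
GAGGAA was present in each of the 4 sequences, and in 23.2% of all 32851 promoter windows of 250 bases, 21.2% of those cut to 228 bases and 9.91% of those cut to 99 bases. TGCTGA was present in C1qb and Ccl8 and in 16.1% of windows of 250 bases. The C/EBP-type motif TTGCNNAA and the AP-1-type motif TGANTCA had no match in the 4 sequences and were in 9.56% and 6.75% of all windows of 250 bases. The shorter windows were cut to their bases farthest upstream, as the shown sequences were, without regard to their own first exons. The motif matches describe letters and no binding was measured.

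Library 1 held 303 C1q-positive macrophages, or 7.76% of its kept barcodes (6.94% to 8.64%), library 2 held 316, or 2.89% (2.58% to 3.22%), and library 3 held 356, or 4.34% (3.91% to 4.81%). The numbers of cells were thus close while the shares differed, beside an epithelial share that ran from 10.8% in library 3 to 63.4% in library 2. The share of a type among captured cells cannot be told apart from how well other types were released. Median depth per macrophage was 8672, 3782 and 2174 UMIs. The median number of C1q UMIs per cell followed that order, at 62, 35 and 10.

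**Figure D1:**
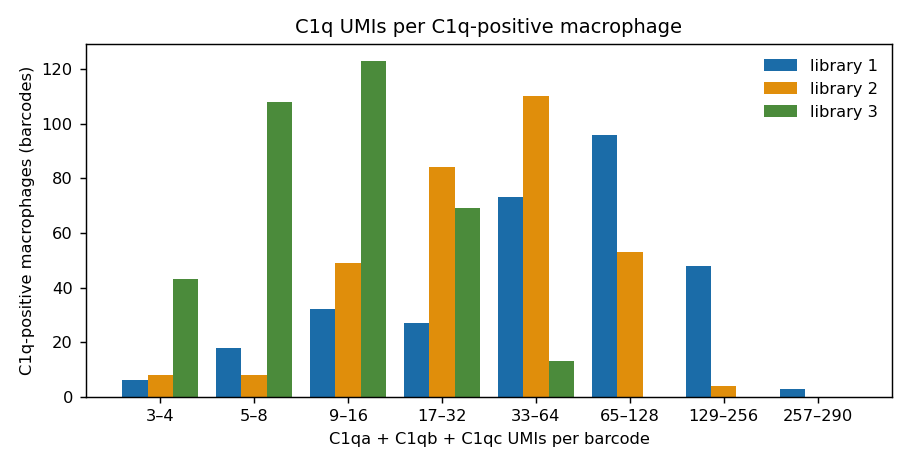
Number of C1q-positive macrophages (y axis) by C1qa, C1qb and C1qc UMIs per barcode (x axis), for libraries 1, 2 and 3. Most cells lie well above the minimum of 3 UMIs in libraries 1 and 2, whereas in library 3 43 of 356 cells have 3 or 4.

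Around the C1q minimum the number of gated barcodes thinned out. Of barcodes that met every other part of the rule, 63 had 2 C1q UMIs and were left out, 50 of them in library 3, and 28 had 3 and were kept. Barcodes with 2 C1q UMIs had 45.7 CPM of Csf1r, 751 CPM of Lyz2 and 1401 CPM of Krt8, and those with 3 had 207, 2199 and 869 CPM. Those with 4 had 168 CPM of Csf1r, 3539 CPM of Lyz2 and 148 CPM of Krt8, and thus less epithelial RNA again. Barcodes gated as other types held a low C1q signal, whose source was not tested. Summed C1q was 12.6 to 27.5 CPM in epithelial-type barcodes and 31.4 to 46.2 CPM in fibroblast-type barcodes across libraries. It was 3624 to 9688 CPM in the macrophages. The fibroblast type can include macrophages that carried fibroblast RNA, so its C1q signal can in part be theirs. After thinning each barcode to 1000 UMIs, C1qa was seen in 86.0% to 90.8% of macrophages and in at most 2.40% of fibroblast-type and 0.906% of epithelial-type barcodes. Before thinning, C1qa was seen in 98.6% to 98.7% of macrophages.

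All 3 chains were seen in 826 of the 975 cells (84.7%), 2 chains in 126 and 1 chain in 23. C1qa, the A chain, was at 3163 CPM (3097 to 3229), 4005 CPM (3898 to 4114) and 1959 CPM (1881 to 2040). C1qb, the B chain, was at 2797 CPM (2735 to 2860), 3434 CPM (3335 to 3535) and 668 CPM (623 to 716). C1qc, the C chain, was at 2043 CPM (1990 to 2096), 2250 CPM (2170 to 2332) and 996 CPM (941 to 1054). Each chain was thus highest in library 2 and lowest in library 3, and the drop in library 3 was deepest for C1qb.

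The ratio of C1qb to C1qa UMIs in macrophages was 0.884 (0.858 to 0.912), 0.858 (0.824 to 0.892) and 0.341 (0.315 to 0.370). C1qc per C1qa moved less, at 0.646, 0.562 and 0.508. Library 3 also had the lowest C1qb ratio in barcodes gated as other cell types. In fibroblast-type barcodes it was 0.857, 0.779 and 0.295 for libraries 1, 2 and 3, and in epithelial-type barcodes 0.843, 0.993 and 0.418. The fibroblast gate did not leave out macrophages with fibroblast RNA, so its ratio can in part be theirs. T-cell-type barcodes had 0.727, 0.782 and 0.462, with a wide interval in library 3 (0.144 to 1.30). The intervals of library 3 lay below those of libraries 1 and 2 in macrophages, fibroblast-type and epithelial-type barcodes and overlapped them in T-cell-type barcodes. The part of library preparation in this was not tested.

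**Figure D2:**
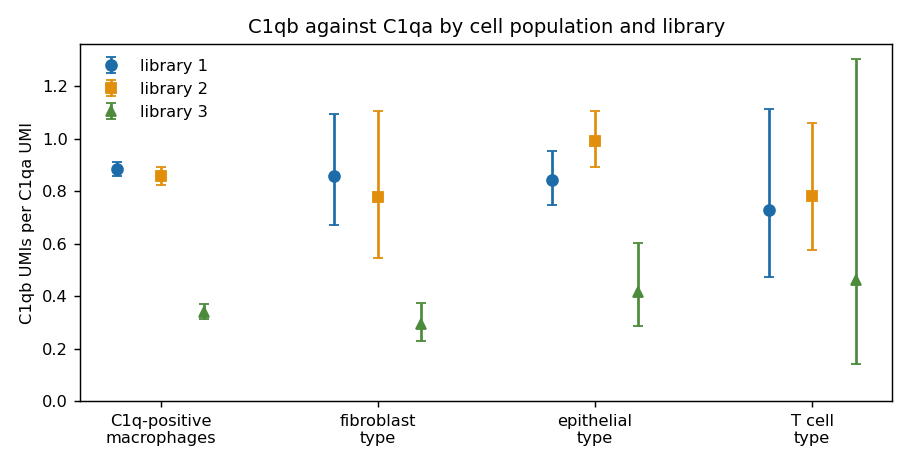
C1qb UMIs per C1qa UMI (y axis) in C1q-positive macrophages and in fibroblast-, epithelial- and T-cell-type barcodes (x axis), by library, with exact 95% intervals. Library 3 is lowest in each population, at 0.341 in macrophages and 0.295 in fibroblast-type barcodes. The fibroblast type can include macrophages with fibroblast RNA.

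Further macrophage genes were present. Apoe was the most abundant of the 5 fixed markers, at 20787, 33086 and 5540 CPM. It was also present at 1864 CPM in fibroblast-type barcodes, so Apoe alone does not set these macrophages apart. Mrc1 was at 995, 546 and 1539 CPM, the reverse order of Apoe, and at most 79.7 CPM in each of the 6 comparison populations. Csf1r, the receptor for the macrophage growth factor CSF1, was at 756, 595 and 424 CPM. Maf, a transcription factor of macrophages, was at 448, 195 and 963 CPM. Mertk and Axl, receptors for dying cells, reached 99.8 and 221 CPM over all libraries, and Axl was at 240.4 CPM in fibroblast-type barcodes. Some genes linked to macrophage activation, named after their values were seen, were near 0, with Nos2 at 0.563 CPM and Arg1 at 0.375 CPM. Others were not: Retnla was at 1595 CPM and Il1b at 1293 CPM.

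**Figure D3:**
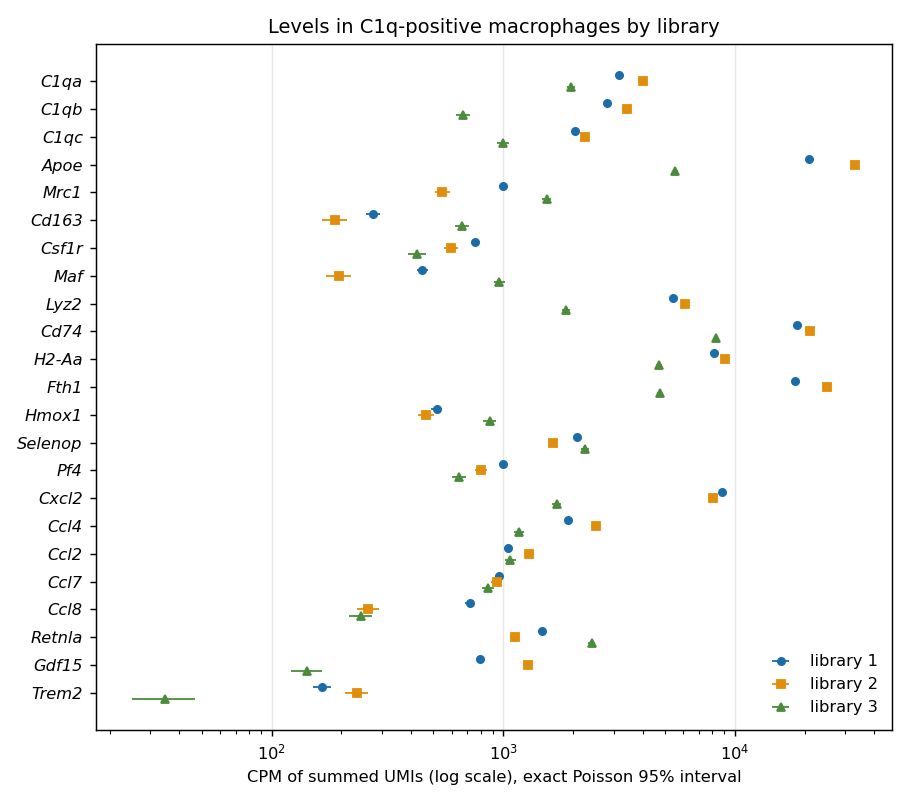
CPM of summed UMIs on a log scale (x axis) for 23 genes (y axis) in C1q-positive macrophages of libraries 1, 2 and 3, with exact Poisson 95% intervals. Most genes are lowest in library 3, whereas Mrc1, Cd163, Maf, Hmox1, Selenop and Retnla are highest there.

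RNA of other cells was carried along to different degrees. The summed fibroblast list (10 genes) came to 696, 472 and 3370 CPM, and the summed endothelial list (8 genes) 66.7, 27.1 and 394 CPM. The epithelial list (10 genes) came to 549, 1310 and 2077 CPM and the smooth muscle list (8 genes) to 291, 290 and 1162 CPM. A UMI of Krt8 was found in 594 of 975 macrophages. In all, 58 macrophages carried high fibroblast, muscle or endothelial RNA, 43 of them in library 3, where they held 20.4% of the macrophages' UMIs. Without them library 3 had 2226 CPM of C1qa, 6006 CPM of Apoe, 1733 CPM of Mrc1 and 281 CPM of Dcn, a fibroblast gene, down from 1118 CPM. The order of the libraries was unchanged for C1qa, Apoe and Mrc1. The epithelial list of library 3 then summed to 2492 CPM, so this removal did not lower epithelial RNA there. Neutrophil markers were low: S100a9 was at 39.2 CPM in these cells and 14580 CPM in neutrophil-type barcodes. The 10 T and NK cell genes summed to 114 CPM and the 8 B and plasma cell genes to 166 CPM. The rule left out barcodes with any Cd3e or Cd79a UMI, so low T and B cell markers are in part set by it and are no finding. Erythrocyte and rod photoreceptor lists summed to 3.94 and 9.19 CPM.

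A comparison with C1q-negative monocyte-type cells had been planned. The gate for them (2 or more UMIs of Ly6c2, Plac8, Ccr2, Chil3 and Vcan, with Fcer1g or Tyrobp) returned 93 barcodes that went against that name. They had 4.08 CPM of Ly6c2, the marker of classical monocytes, but 1665 CPM of the epithelial keratin Krt8 and 7834 CPM of Clu. Library 3 held 58 of the 93 barcodes and 1441212 of their 1717422 UMIs, so these summed levels describe mainly library 3. Libraries 1 and 2 held 16 and 19 of the barcodes. Against the 93 barcodes, 327 of 9509 genes were higher in the macrophages (3.44%) and 115 lower (1.21%), by at least 2-fold in summed counts and in each library. The lower count was 177, 450 and 614 without libraries 1, 2 and 3 and 24 at a C1q minimum of 2 UMIs, and the higher count was 552 without library 2. The lowest were genes of transporting epithelium: Slc4a4, a bicarbonate transporter, was at 141 CPM against 1733 CPM, and Cldn2, a tight junction gene, at 34.7 against 481 CPM. Among the genes highest in the macrophages were C1qa, C1qb, C1qc, Apoe, Ccl12, Ms4a7, Pf4, Gdf15 and Ccl8. Over all libraries, and thus mainly for library 3, this contrast describes macrophages against barcodes with epithelial RNA. It is not used further.

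Dendritic-type barcodes, the nearest other antigen-presenting cells, were used instead, a choice made after the values were seen. They were 582 barcodes with no C1q UMI, at least 2 UMIs of Flt3, Xcr1, Clec9a and Cd209a, and 2000 CPM or more of H2-Aa, H2-Ab1 and Cd74. Ratios are log2 of CPM with 10 CPM added, and a gene counts as higher or lower at 2-fold over all libraries and in each of the 3. By this rule 320 of 8252 genes (3.88%) were higher in the C1q-positive macrophages and 151 (1.83%) lower. The gates fix the C1q genes on one side and Flt3, Xcr1, Clec9a and Cd209a on the other, and those are not findings. Csf1r, Adgre1, Mrc1 and Cd68 were part of the macrophage rule and are no findings either. Counts of lists that hold gate genes include them. The median log2 ratio over all genes was 0.09. Without library 3, the higher count was 493.

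Many chemokine genes were higher in the macrophages. Of 19 chemokine genes compared, 10 were higher in them and 0 lower, with a median log2 ratio of 2.20. Pf4 (Cxcl4) was at 1001, 805 and 645 CPM, against 4.67 CPM in dendritic-type barcodes. Ccl12, a ligand of the monocyte receptor Ccr2, was at 761, 690 and 283 CPM against 1.22 CPM. Ccl7, another Ccr2 ligand, was steady at 960, 939 and 862 CPM, and Ccl2 at 1044, 1297 and 1071 CPM, against 21.3 and 71.8 CPM. Cxcl2, which attracts neutrophils, was at 8762, 8009 and 1703 CPM. It is shared with neutrophil-type barcodes, which held 12556 CPM. Ccl4 was at 1900, 2520 and 1171 CPM but did not count as higher, since its log2 ratio was 3.52, 4.52 and 0.04.

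Uptake, lysosome, iron and lipid genes were described in the same way. Of 24 lysosome genes 11 were higher and 0 lower, with a median log2 ratio of 1.60. The list holds Cd68, a gene of the macrophage rule. Ctsb, a lysosomal protease, was at 2410 CPM against 206 CPM and Lgmn, a protease of antigen processing, at 1126 against 102 CPM. Of 16 scavenger and uptake receptors 9 were higher, among them Mrc1, Cd163, Stab1 and Msr1, and Cd209a was lower. Of this list, Mrc1 and Cd68 belong to the macrophage rule and Cd209a to the dendritic-type gate. Stab1, a clearance receptor, was at 222 against 2.64 CPM. Of 16 iron and heme genes 8 were higher: Hmox1, which degrades heme, was at 516, 466 and 873 CPM against 59.0 CPM, and Spic, a factor of iron-recycling macrophages, at 102, 130 and 64.2 CPM against 1.01 CPM. Of 21 lipid genes 8 were higher, including Abca1, a cholesterol exporter, at 410 against 25.4 CPM and Trem2, a lipid-sensing receptor, at 152 against 0.406 CPM.

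Complement was represented beyond C1q. Of 20 complement genes 6 were higher than in the dendritic type, the 3 C1q genes plus C4b and the receptors C3ar1 and C5ar1. The whole list of 25 genes summed to 10254 CPM in the macrophages, of which C1q made up 7424 CPM. It summed to 10060 CPM in epithelial-type, 6575 CPM in fibroblast-type and 3375 CPM in neutrophil-type barcodes. Complement beyond C1q was thus not particular to the macrophages. C3ar1, the receptor for the C3a fragment, was at 416, 341 and 353 CPM and at most 5.33 CPM in the dendritic, neutrophil, fibroblast, epithelial and T-cell types. C5ar1 was at 304, 198 and 464 CPM and was shared with neutrophil-type barcodes at 441 CPM. Among growth factors and immune regulators 10 of 19 were higher, including Gdf15, a stress-induced cytokine, at 796, 1277 and 142 CPM against 11.8 CPM. Il10, an anti-inflammatory cytokine, was at 106, 85.9 and 74.1 CPM against 2.23 CPM and had a UMI in 154 of 975 macrophages. Tnf was at 316, 295 and 112 CPM against 12.8 CPM.

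Few MHC class II genes differed by 2-fold between the cell types. Cd74, the invariant chain of MHC class II, was at 18546, 21093 and 8310 CPM in the macrophages and 16015 CPM in the dendritic type, for which it was part of the gate. Of 14 MHC class II genes 1 was higher and 2 were lower, with a median log2 ratio of -0.22. H2-Aa had a UMI in 936 of 975 macrophages (96.0%). Genes lower in the macrophages included dendritic cell genes: Ccr7, the receptor for migration to lymph nodes, was at 17.1 against 436 CPM, and Itgae, an integrin of mucosal cells, at 0.750 against 92.1 CPM. Ccl17, a chemokine for T cells, was at 19.9 against 237 CPM.

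**Figure D4:**
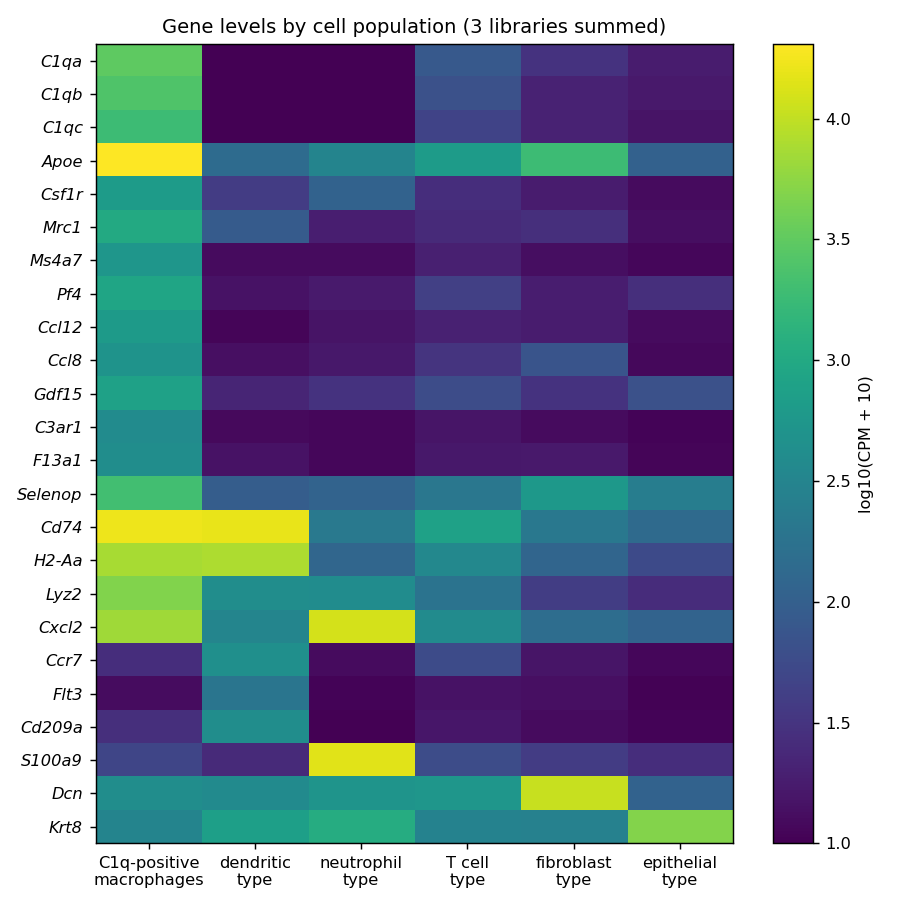
Levels as log10(CPM + 10) (colour) of 24 genes (rows) in C1q-positive macrophages and 5 other populations (columns), with the libraries summed. Pf4, Ccl12, Ms4a7, C3ar1 and F13a1 stand out in the macrophages, whereas Cd74 and H2-Aa are shared with the dendritic type and Cxcl2 with the neutrophil type.

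Among the macrophages themselves, the genes Lyve1, Folr2, Cd163 and Timd4 marked a range. After thinning to 1000 UMIs, at least 1 UMI of these genes was found in 79 of 303 cells (26.1%, 21.2% to 31.4%), 63 of 316 (19.9%, 15.7% to 24.8%) and 196 of 356 (55.1%, 49.7% to 60.3%). Without thinning and over all libraries the share was 49.6% in place of 34.7%. This is a range of a score and not a type: a cell without a UMI in 1000 may still carry the transcript. Cd163, a hemoglobin receptor, supplied most of the signal, at 274, 188 and 667 CPM, and Timd4 little, at 7.53, 1.51 and 14.8 CPM. Cells in the range were compared with the others within each library, leaving out the 4 genes themselves.

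Of 8421 genes, 60 (0.713%) were higher in the resident-type range by at least 2-fold overall and in each library, and 49 (0.582%) were lower. The median log2 ratio over all genes was 0.15. Without the 58 cells that carry stromal RNA 70 of 8100 genes (0.864%) were higher and 58 (0.716%) lower. Without library 3 the counts were 114 and 141, and without library 1 84 genes were lower. Of 17 further genes of a perivascular and interstitial list 10 were higher and 0 lower. Mrc1 was at 2172 against 677, 1433 against 384 and 2382 against 905 CPM. Maf, a transcription factor of such macrophages, was at 1041 against 288, 507 against 138 and 1535 against 534 CPM. F13a1, which encodes a clotting factor subunit, was at 1019 against 216, 624 against 140 and 1000 against 389 CPM. Cbr2, Selenop, Clec10a, Stab1 and Igf1 were higher in the range too.

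Ligands of Ccr2 and other chemokines were higher where the resident-type genes were. Of 18 chemokines compared, 6 were higher in the range and 0 lower: Ccl2, Ccl7, Ccl8, Ccl12, Ccl24 and Pf4. Ccl8 was at 2322 against 284, 1272 against 76.7 and 378 against 141 CPM. Ccl7 was at 2506 against 544, 3095 against 545 and 1478 against 399 CPM. Across cells of a library, the summed resident-type genes correlated with Ccl7, Ccl8, Ccl12 and Pf4 at a Spearman rho of 0.56, 0.54 and 0.32. These chemokine genes were among the 6 higher in the range, and the same resident-type score defined the range. The rho thus restates that difference and supports nothing further. Cells of a library share its depth and preparation, and the values are a description.

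Of 21 complement genes 4 were higher in the range and 1, Itgax, was lower. C4b, of the classical pathway, was at 364 against 63.3, 205 against 59.7 and 520 against 200.4 CPM, and C5ar1 and Cd55 were also higher. C1qa had log2 ratios of 0.17, 0.29 and 0.98, below the 2-fold rule in each library. Apoe had ratios of -0.28, -0.12 and 0.71. C1q and Apoe correlated across cells at a rho of 0.41, 0.41 and 0.36. Klf2, an early-response factor also high in endothelium, was higher at 415 against 106, 283 against 74.0 and 1645 against 587 CPM. The endothelial list summed to 15.2 against 80.6, 19.5 against 28.5 and 754 against 123 CPM. Without the 58 cells that carry stromal RNA the log2 ratio of Klf2 was 2.01, 1.80 and 1.42.

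Genes lower in the range included Ccr2, the receptor by which monocytes enter tissue, and Itgax, an integrin of dendritic cells and some macrophages. Ccr2 was at 1.69 against 168, 4.88 against 91.8 and 19.2 against 412 CPM. Itgax (CD11c) was at 8.44 against 234, 0 against 189 and 9.60 against 88.0 CPM. Mmp12, macrophage elastase, was at 1.69 against 564, 19.5 against 516 and 44.1 against 105 CPM. Ear2, an eosinophil-associated ribonuclease gene, was at 0 against 126, 0 against 104 and 17.3 against 202 CPM. Lyz1, Il7r and Dcstamp were lower in the range as well, and of 17 lipid-associated and wound-type genes 4 were lower (Lgals3, Lpl, Itgax and Fn1) and 0 higher. H2-M2 was at 0 in the range in each library, but its level elsewhere was 5.77 CPM in library 3, under the 2-fold rule there. Some calls were lost under other settings while the ratio over all libraries stayed past 2-fold. At a keratin limit of 1000 CPM these were Ccl8 (log2 ratio 2.67), F13a1 (2.03) and Mrc1 (1.69). At 2 resident-type UMIs they were Ccl7 (1.32), Fcna (3.65), Acp5 (-2.95) and Il7r (-2.88). At a C1q minimum of 2 UMIs they were Il7r (-3.12), Acp5 (-2.85) and Mmp12 (-3.80). Mmp12 was also lost at 2000 UMIs per cell (-3.90) and without cells with a microglia gene (-3.79). Without thinning the calls of Fcna (2.9) and S100a4 (-1.63) were lost, and at a mitochondrial limit of 10% that of Fcna (3.24).

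The difference in these genes can also be given by cell. Ccr2, Itgax and S100a4 were put in 1 set because they were seen to be lower in the range, so the overlap restates that difference and supports nothing further. After thinning, 180 cells had a UMI of the set. Of these 9 (5.00%, 2.31% to 9.28%) also had a resident-type UMI, against 329 of the 795 others (41.4%, 37.9% to 44.9%). Neither kind was seen in 466 of 975 cells (47.8%). Within libraries the 2 shares were 1.61% and 32.4%, 0% and 25.2%, and 15.4% and 61.8%. The 0 of 66 in library 2 allows a share of up to 4.55%, by 3 counts of the total.

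MHC class II ran against the resident-type genes at smaller size. Cd74 was at 11838 against 20356, 14010 against 22388 and 7780 against 8708 CPM. None of 14 MHC class II genes passed the 2-fold rule, which used no test. Their median log2 ratio over all libraries was -0.72. Summed, they were at 30552 against 49992, 36525 against 54498 and 20681 against 23425 CPM. Library 3 had the lowest MHC class II sum and the largest share of cells in the range, so the median over all libraries also carries that mix. The rho between summed MHC class II and the resident-type genes was -0.31, -0.35 and -0.25. It used the score that defined the range and so restates the difference. Il1b, an inflammatory cytokine, was at 334 against 1519, 551 against 1628 and 986 against 1306 CPM, also without passing the rule in library 3.

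**Figure D5:**
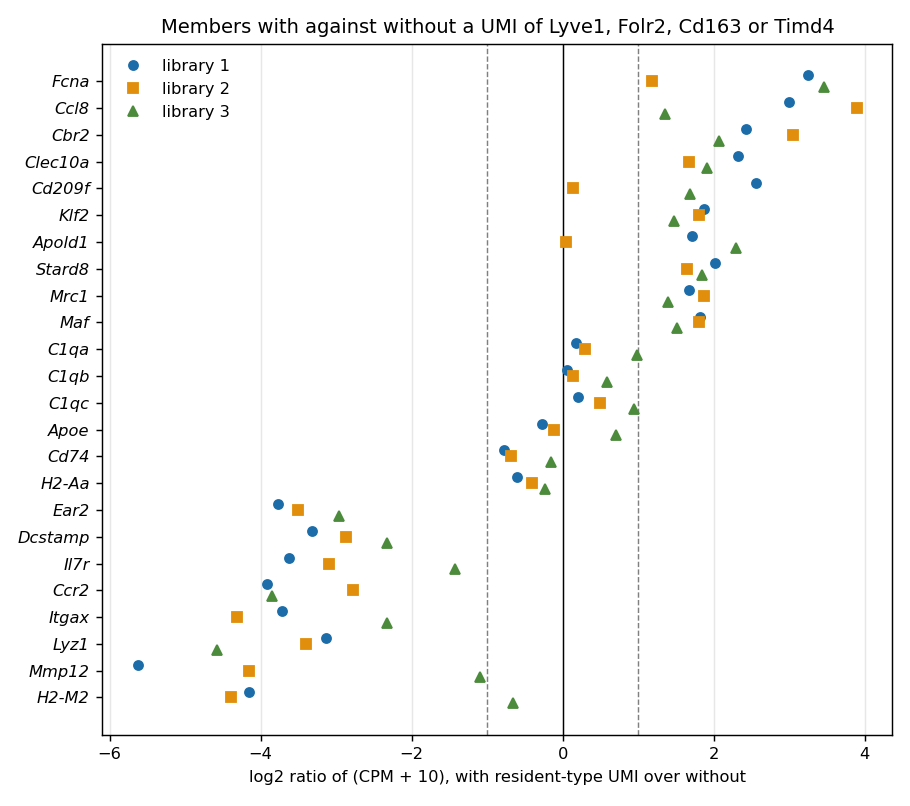
Log2 ratio of CPM + 10 (x axis) of macrophages with over those without a thinned UMI of Lyve1, Folr2, Cd163 or Timd4, for 24 genes (y axis) and libraries 1, 2 and 3; dashed lines mark 2-fold. Ccl8, Cbr2, Mrc1 and Maf lie to the right and Ccr2, Itgax and Ear2 to the left in each library, whereas the C1q chains and Apoe lie within 1 of 0; Cd209f and Apold1 are close to 0 in library 2.

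Retnla, which encodes the secreted protein RELMα made by some macrophages, was spread very unevenly over the C1q-positive macrophages. Its level was 1464, 1126 and 2408 CPM, yet 164 of 975 cells (16.8%) held a UMI of it, and the 20 cells with the most held 61.2% of its UMIs. The same share was 10.1% for C1qa, 14.7% for Apoe and 47.4% for Ccl8. After thinning to 1000 UMIs, 64 cells had 5 or more Retnla UMIs, a limit chosen after the values were seen: 22 of 303, 13 of 316 and 29 of 356. Along the resident-type axis Retnla took different sides: 1956 against 1331, 29.2 against 1326 and 1107 against 3385 CPM. Of the 64 cells, 23 lay in the resident-type range, beside 338 of all 975 macrophages. By library these were 8 of 22, 0 of 13 and 15 of 29, beside 79 of 303, 63 of 316 and 196 of 356.

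Those 64 cells were compared with the other 911 as a description. Of 8325 genes, 86 (1.03%) were higher by at least 2-fold overall and in each library and 146 (1.75%) lower. Fn1, which encodes fibronectin, was at 1335 against 64.5 CPM, and Ear2 at 732 against 40.0 CPM. Lyz1 was at 809 against 41.6 CPM, S100a4 at 813 against 84.1 CPM and Ccr2 at 623 against 97.2 CPM. Resident-type genes were not lower over all libraries as a set. Lyve1 was at 201 against 62.4 CPM and Folr2 at 172 against 54.2 CPM. Mrc1 was at 906 against 1017 CPM and Cd163 at 308 against 345 CPM. In library 2, however, Lyve1, Folr2 and Cd163 were at 0 CPM in the Retnla-rich cells. Ccl6 and Ccl9, chemokines of myeloid cells, were at 2304 against 407 CPM and 1425 against 288 CPM. Apoe was lower, at 3531 against 22584, 1555 against 35172 and 2043 against 5965 CPM. Cx3cr1, the fractalkine receptor, was at 8.38 against 232 CPM, Ms4a7 at 69.2 against 590 CPM and C1qa at 1291 against 3276 CPM. H2-Aa was close, at 6964 against 7615 CPM, and Arg1 and Chil3, often listed with Retnla, were at 0 CPM (up to 7.73 CPM) in these cells.

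Few cells carried genes of Kupffer cells. At least 2 UMIs of the Kupffer cell genes Clec4f, Cd5l and Vsig4 were found in 13 cells, all in library 3. The 0 of 303 in library 1 and 0 of 316 in library 2 allow shares of up to 0.990% and 0.949%, taken as 3 counts of the total; this limits cells with such UMIs, not cells expressing the genes. A single UMI was seen in 3 cells of library 1. The 3 genes chose these cells and are no finding in them. Of genes not used, the 13 cells had, against the other macrophages of library 3, 765 against 33.1 CPM of Slc40a1, the iron exporter, and 482 against 53.4 CPM of Fcna, a ficolin gene. Their H2-Aa was 794 against 4818 CPM, and the hepatocyte gene Alb was at 0 CPM (up to 104 CPM). The fibroblast gene Dcn was at 2182 against 1086 CPM, and the endothelial genes Cdh5 and Kdr were at 255 against 52.6 CPM and 142 against 96.7 CPM. Kupffer cells are macrophages of the liver, which adjoins the gallbladder; where these 13 cells came from was not tested.

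Library 3 stood apart within these macrophages in several gene groups. The immediate early genes Fos, at 1155, 1062 and 4576 CPM, and Dusp1, at 1037, 1127 and 5494 CPM, were highest there. In neutrophil-type barcodes Dusp1 was likewise 2994, 1782 and 11770 CPM. Epithelial-type barcodes differed less, with 2710, 2269 and 2583 CPM of Fos. Other genes were lowest there: Tyrobp, a signalling adaptor, was at 1487, 1996 and 348 CPM, and Fth1, the ferritin heavy chain, at 18158, 24905 and 4738 CPM. The same held in dendritic-type barcodes, with 900, 950 and 265 CPM of Tyrobp and 9244, 11781 and 2603 CPM of Fth1. Gm42418, a locus that overlaps ribosomal RNA, ran from 52212 CPM in library 1 through 33148 to 5256 CPM. Summed C1q of library 3 was 0.453 (0.438 to 0.468) of that of library 1, and 0.640 when each cell was thinned to the same depth. Since library, depth and group coincide, an effect of exposure and one of preparation cannot be told apart.

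The genes highest in each library by the naming rule were of mixed kind. Library 1 led in Ccl8, at 717 CPM against 262 and 243 CPM, and in Cxcl1, a neutrophil chemokine, at 536 against 322 and 145 CPM. Library 2 led in AY036118, Gm10076 and Ramp1 and in Isg15, an interferon-induced gene, at 219 CPM against 124 and 22.2 CPM. Genes in which library 3 led included Prss23, Mmrn1 and Igfbp3. Without the cells that carry stromal RNA, Prss23 was at 82.7 in place of 299.7 CPM, Mmrn1 at 20.7 in place of 214 CPM and Igfbp3 at 55.8 in place of 255 CPM. Cd163 was 749 CPM without those cells, against 286 and 192 CPM in libraries 1 and 2, so its difference was as large without them.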

How the data were processed

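Single-cell 3′ libraries of pooled mouse gallbladders gave UMI counts, deposited by the authors as 1 matrix of 31053 genes and 27700 barcodes and made with Cell Ranger 6.1.1 on GRCm38 (mm10), per the submitters' processing notes. The annotation release and the handling of reads shared between genes are not given in the sources used here. The members, gene lists and alternatives were chosen with earlier results of these data known.

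Counts were summed over the barcodes of a population and library and divided by all their UMIs (CPM), without division by gene length, since 3′ tags are counted per transcript. CPM intervals are exact Poisson and shares are exact binomial (Clopper-Pearson), at 95%. Genes at 10 CPM or more in either population were compared, with 10 CPM added, so genes below 10 CPM in both cannot reach 2-fold. With 1 library per group and unmatched library numbers there is no test. Thinning drew 1000 UMIs per barcode without replacement. Kept barcodes had median depths of 13162, 10121 and 2996 UMIs in libraries 1, 2 and 3. Barcode sequences shared by libraries numbered 54, 1 of them in macrophages. Doublets were marked with Scrublet (scanpy 1.11.5, rate 0.06, score threshold 0.25) as an alternative. Comparison populations were gated on markers; epithelial: 6000 CPM of the keratin set; fibroblast: 6000 CPM of Col1a1, Col1a2, Col3a1 and Dcn; neutrophil: 6000 CPM of S100a8, S100a9, Retnlg and Csf3r; T cell: 3 UMIs of Cd3e, Cd3d, Cd3g, Trac and Trbc2 with Cd3e present. Macrophages counted as carrying stromal RNA at 6000 CPM of the fibroblast or a smooth muscle set, or at 3 endothelial UMIs and 1000 CPM. Any macrophage at 6000 CPM of the fibroblast set also fell within the fibroblast gate, which did not leave it out. The contrast was tested on simulated data.

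Named genes were the markers and rule genes; per list the 3 highest and those at 100 CPM and 2-fold above every other population; the extremes of each contrast at 50 CPM or more; and the 4 highest of each library. Other list members, marker genes and the genes compared between cells rich and poor in Retnla were named after their values were seen. Figures were drawn with matplotlib 3.10.9, and sums and intervals came from pandas 2.3.3 and scipy 1.17.1 under Python 3.11.15, with numpy 2.4.6 for thinning.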

Additional observations from a re-analysis of the deposited data

How the results depend on the processing

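No paired analysis was possible because the libraries carry no group and no replicate number. Leaving out each library in turn gave 619 to 672 macrophages and a share of 3.51% to 5.45%, summed C1q of 6790, 6674 and 8546 CPM without libraries 1, 2 and 3, and a resident-type share of 38.5%, 41.7% and 22.9%. Against the dendritic type 339 to 493 genes were then higher and 157 to 220 lower, against the monocyte-type gate 406 to 552 higher and 177, 450 and 614 lower, and in the resident-type range 83 to 114 higher and 84, 67 and 141 lower; fewer libraries must meet the 2-fold rule there. The share was 4.50% at a C1q minimum of 2 UMIs, 3.47% at a keratin limit of 1000 CPM and 3.09% without microglia genes. Summed C1q was 6513 and 7886 CPM at minimums of 2 and 5 UMIs, 7735 CPM without Scrublet-marked barcodes, 7789 CPM at the keratin limit, 6807 CPM without microglia genes and 7839 CPM without stromal RNA. With 1 CPM added, 522 genes were higher and 243 lower than in the dendritic type, with 50 CPM 128 and 46, and with 2-fold over all libraries alone 637 and 313. Against the monocyte-type gate 333 were lower with 1 CPM added; with 50 CPM 126 were higher and 14 lower, and with 2-fold over all libraries alone 934 and 1578. Its lower count was 24 at a C1q minimum of 2, 203 at the keratin limit, and 213 both without stromal RNA and with the mean of per-cell CPM. The resident-type share was 30.04% at 2000 UMIs, 49.6% without thinning and 17.03% at 2 UMIs; 37 genes were higher in the range at the keratin limit and 38 at 2 UMIs. The C1q ratio of library 3 to library 1 was 0.640 thinned, 0.625 as a mean of per-cell CPM and 0.496 without stromal RNA. Of 294 log2 ratios of 21 named genes under these alternatives 0 reversed a called direction and 15 fell below the rule. A further 2 changed sign without a call: C1qa (-0.03) without thinning and C1qb (0.06) without library 3. H2-Aa, Cd74, the C1q genes and Apoe were among the 21, were not called and so could not fall below the rule. The alternatives for the dendritic type and stromal RNA were chosen after seeing the data. The cause of these shifts was not tested. Depth limits library 3 most, where 10 C1q UMIs was the median.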

Other observations

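Microglia genes were present at a low level in the macrophages that met the UMI minimum. Barcodes below that minimum were left out, so the low level can in part be set by the rule and is given as a description. P2ry12 was at 37.3, 27.1 and 23.9 CPM and Tmem119 at 24.7, 30.9 and 15.6 CPM, while Sall1, a defining factor of microglia, was at 0.188 CPM over all libraries. A UMI of P2ry12, Tmem119, Sall1 or Siglech was found in 262 of 975 cells. By library these were 125 of 303, 75 of 316 and 62 of 356. Without these cells summed C1q was 6807 CPM in place of 7424 CPM. Few cells had 2 or more UMIs of the dividing-cell genes Mki67, Top2a, Birc5, Cdk1 and Ccnb2. They numbered 18, 1 and 12 in libraries 1, 2 and 3, which is 5.94%, 0.316% and 3.37%. These counts and those of the microglia genes were not thinned. Deeper cells reach such limits more easily, so the libraries cannot be set against each other by them. The mice were male, and a UMI of Xist, a transcript of female cells, was found in 5 of 975 macrophages.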
